A study of Mus musculus with 81 samples.

Results

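The guanylate-binding protein genes of the mouse were followed through 5 RNA sequencing experiments on RBPJ and Notch in a hybridoma line of mature T cells. The members were chosen by name, as the 9 rows Gbp2, Gbp3, Gbp4, Gbp5, Gbp6, Gbp7, Gbp8, Gbp9 and Gbp10 among the 24391 gene symbols of the count table. The first experiment compared lines 2-12 and 2-14, in which RBPJ was depleted with CRISPR/Cas9, with a control line, at 2 libraries a line; the labels do not say whether a line is 1 clone. The second followed cells carrying NICD1-ER, the Notch1 intracellular domain joined to the estrogen receptor, given ethanol for 24 h or 1 µM 4-hydroxytamoxifen (4-OHT) for 4, 8 or 24 h. It had 10 libraries, 3 each at 4 and 8 h and 2 each with ethanol and at 24 h of 4-OHT. The labels also list a replicate 1 for these last 2 groups, which was not among the columns used. The third compared GFP-KYOT2 wild type and GFP-KYOT2 WWAA, which is defective in binding RBPJ per the labels, with GFP, at 3 libraries each. The fourth compared the gamma-secretase inhibitor DAPT (GSI) at 20 µg/ml for 24 h with DMSO, at 2 libraries each. The last infected RBPJ-depleted and control cells with BioNICD1, a construct of the wild-type Notch1 intracellular domain, or with Biocontrol, at 3 libraries for each of the 4 groups; the labels do not say which depleted line was used there.

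Guanylate-binding proteins are large GTPases that interferons, above all interferon gamma, induce in many cell types. They gather on the vacuoles of intracellular parasites and on bacteria in the cytosol, help to break these open and feed inflammasomes, and in mice they work together with the immunity-related GTPases. Interferon gamma acts on genes through GAS elements in their promoters and through IRF1, which binds the interferon-stimulated response element (ISRE). RBPJ is the DNA-binding protein of the Notch pathway: it recruits corepressors in the absence of Notch signal and activates genes when the Notch intracellular domain joins it. KYOT2 is a LIM-domain protein that binds RBPJ, and a gamma-secretase inhibitor blocks the release of the Notch intracellular domain from the membrane.

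In the RefSeq annotation the members lay in 2 clusters, in the order Gbp5, Gbp7, Gbp3, Gbp2b and Gbp2 on chromosome 3 and Gbp8, Gbp9, Gbp4, Gbp10, Gbp6 and Gbp11 on chromosome 5. Gbp2b and Gbp11, a transcribed pseudogene in RefSeq, are rows of the table but no members. RefSeq promoters of the build GRCm38.p6, from 250 bases before to 50 bases after a gene's start, matched 4 of the 9 members, all on the plus strand of chromosome 3. These 4 genes were the only members with a promoter, so the chromosome 5 members were not searched. Each of the 4 sequences shown holds an ISRE-type motif (GAAANNGAAA, or TTTCNNTTTC on the other strand), which is in capitals.

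Gbp5 (chr3:142496684-142496983): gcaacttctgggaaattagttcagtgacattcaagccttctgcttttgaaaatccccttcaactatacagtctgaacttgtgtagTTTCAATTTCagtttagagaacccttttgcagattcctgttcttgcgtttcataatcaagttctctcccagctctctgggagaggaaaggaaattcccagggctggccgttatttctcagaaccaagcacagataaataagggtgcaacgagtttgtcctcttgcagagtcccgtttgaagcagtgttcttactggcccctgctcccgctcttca
Gbp7 (chr3:142530086-142530385): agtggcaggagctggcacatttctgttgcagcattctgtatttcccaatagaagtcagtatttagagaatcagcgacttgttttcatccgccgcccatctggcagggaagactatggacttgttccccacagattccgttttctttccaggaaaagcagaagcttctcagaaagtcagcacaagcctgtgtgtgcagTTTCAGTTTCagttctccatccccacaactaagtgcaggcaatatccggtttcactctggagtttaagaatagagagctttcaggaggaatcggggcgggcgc
Gbp3 (chr3:142559794-142560093): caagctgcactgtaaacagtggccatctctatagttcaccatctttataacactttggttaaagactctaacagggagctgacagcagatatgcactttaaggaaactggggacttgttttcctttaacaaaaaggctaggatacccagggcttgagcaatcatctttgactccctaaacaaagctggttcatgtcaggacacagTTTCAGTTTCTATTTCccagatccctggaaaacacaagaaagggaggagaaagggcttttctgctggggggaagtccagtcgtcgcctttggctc
Gbp2 (chr3:142620413-142620712): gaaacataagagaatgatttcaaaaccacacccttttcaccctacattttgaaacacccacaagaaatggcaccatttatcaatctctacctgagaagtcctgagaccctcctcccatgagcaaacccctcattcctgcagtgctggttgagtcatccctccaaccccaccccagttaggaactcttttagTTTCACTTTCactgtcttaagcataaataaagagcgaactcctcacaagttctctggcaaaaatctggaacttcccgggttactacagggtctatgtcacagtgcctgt

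The ISRE-type motif was present in 3.44% of the 32851 RefSeq promoters of this length, searched on both strands, and in 4 of the 4 members that had a promoter. It started 165 bases before the gene's start in Gbp5, 53 in Gbp7, 59 in Gbp2 and 45 in Gbp3, where a second, overlapping match started at 39 bases. A GAS motif (TTCNNNGAA) was present in Gbp5 and Gbp7, 2 of the 4, and in 8.30% of all promoters. The core letters of an RBPJ site (TGGGAA, or TTCCCA on the other strand) were present in Gbp5, Gbp7 and Gbp3, 3 of the 4, and in 25.6% of all promoters. The RBPJ letters overlapped a GAS match in Gbp5 and an ISRE-type match in Gbp3. For Gbp3 the promoter of the first annotated start is shown, and that of a second start held none of the 3 motifs. The members were counted as genes with a match in any promoter, while the shares over all are counted per promoter. These matches describe the sequence only.

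Totals ran from 2377028 to 5998832 counts a library in the depletion experiment, where the control line held 2377028 and 4805039, and from 4325641 to 14244209 in the others. Levels are given as CPM, counts scaled by the library total and its TMM factor, and 3 counts, taken as the floor of detection, stood for 0.211 to 1.26 CPM; this floor covers counting error only. Changes are log2 ratios with their standard errors (SE), tested with edgeR's quasi-likelihood test, and a gene was called at an adjusted p under 0.05, with Benjamini-Hochberg adjustment over all genes tested in that comparison. Nothing in the labels says that replicates were separate cultures, so p-values measure the spread between these libraries, which may be technical. In the NICD1-ER experiment replicates 1 and 2 at 4 h, and those at 8 h, differed by less than the sampling noise, with chi-square values of 0.907 and 0.835 per gene, and were summed and counted as 1 sample. The 24 h 4-OHT pair, at 0.928, and the GSI pair, at 0.766, were as close but were kept apart as the only pair of their group. In the BioNICD1 experiment replicate 3 of depleted cells with Biocontrol and replicate 1 of depleted cells with BioNICD1 stood apart from the other libraries of their groups. The T cell markers Cd3e, Cd3g, Cd3d, Cd2, Lck and Thy1 were all detected, with a summed level of 581 to 1730 CPM per library.

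Near-identical family members can share reads, and the counting tool is not given in the sources used here, so the split of reads between members is uncertain. Among the 36 pairs of members and 41 libraries, equal counts occurred in 2 libraries for Gbp2 and Gbp3, at 1 and at 4 counts in the control line. The only other ties were those among Gbp6, Gbp9 and Gbp10, all in 1 library. That was replicate 1 of the control line, where each of these genes had 11 counts. No pair had equal counts throughout, unlike Hba-a1 and Hba-a2, a pair of near-identical hemoglobin genes whose counts were equal in all 41 libraries. Over libraries with at least 20 counts in both genes, the ratio between 2 members varied from 2.24-fold for Gbp2 and Gbp5 (12 libraries) to 56.7-fold for Gbp2 and Gbp8. The 9 rows carried separate values.

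Both RBPJ-depleted lines held far more RNA of the chromosome 3 members and of a subset of the chromosome 5 members than the control line did. Over lines 2-12 and 2-14 together, 6 of the 9 members rose (Gbp2, Gbp3, Gbp5, Gbp6, Gbp7 and Gbp10) and 0 fell, while 6.21% of the 11566 genes tested rose and 3.68% fell. The median log2 change of the members was 2.11, beside -0.0045 over all genes tested. The targeted gene, Rbpj, was lower in both lines: its mean was 44.2 ± 11.6 CPM in the depleted lines and 157 ± 34.3 CPM in the control line (SD, n = 4 and 2 libraries), a log2 change of -1.85 (adjusted p = 0.00430, edgeR). The n of 4 joins the libraries of both depleted lines, and the 2 control libraries are of the same line. In this experiment RBPJ depletion therefore cannot be told apart from other differences between the lines.

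**Figure D1:**
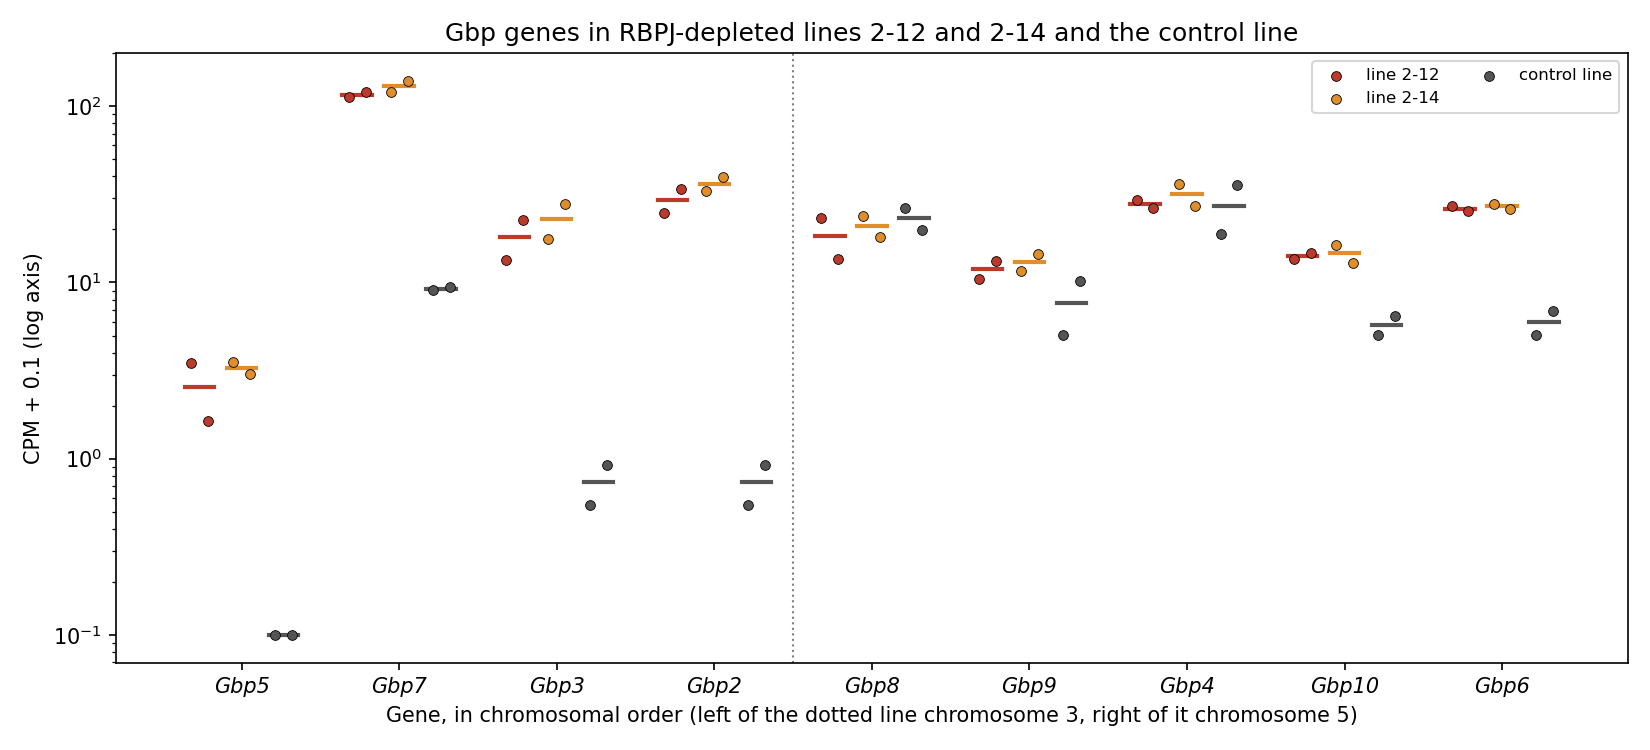
Level of each Gbp gene in lines 2-12 and 2-14 and in the control line, as CPM + 0.1 on a log axis; points are libraries and bars are group means. The chromosome 3 genes Gbp5, Gbp7, Gbp3 and Gbp2 separate widely, with Gbp2 at 24.7 to 39.6 CPM in the depleted lines and at 0.448 and 0.825 CPM in the control line, while Gbp8 and Gbp4 overlap.

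Gbp2, a protein that coats Toxoplasma vacuoles in mouse cells, had 24.7 and 33.8 CPM in line 2-12, 33.0 and 39.6 CPM in line 2-14, and 0.448 and 0.825 CPM in the control line. The control values rest on 1 and 4 counts, against 102 to 243 counts in the depleted libraries, and no library of a depleted line came near the control line. The log2 change was 5.49 (SE 0.363, adjusted p = 0.000578, edgeR). Gbp3, which gathers at the same vacuoles, had 13.3 and 22.7 CPM in line 2-12, 17.6 and 27.9 CPM in line 2-14, and, at the same 1 and 4 counts as Gbp2, 0.448 and 0.825 CPM in the control line. The depleted libraries lay far above the control libraries here too, though at lower levels than for Gbp2. The log2 change of Gbp3 was 4.81 (SE 0.533, adjusted p = 0.00384).

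Gbp7, which is linked to defence against intracellular bacteria in mouse macrophages, had 112 and 120 CPM in line 2-12, 120 and 140 CPM in line 2-14, and 8.96 and 9.28 CPM in the control line. It had the smallest adjusted p of the family in this experiment, with a log2 change of 3.74 (SE 0.155, adjusted p = 0.000112). Gbp5, a promoter of NLRP3 inflammasome assembly, had 14 and 9 counts in line 2-12 and 14 and 18 in line 2-14, against 0 and 0 in the control line. The level over both lines, 2.82 ± 0.887 CPM (SD, n = 4), was at least 6.42-fold higher than the floor of 3 counts over the control group allows (adjusted p = 0.0366). Of the non-member Gbp2b, between Gbp3 and Gbp2 on the chromosome, the lines held 285 counts and the control line 2, a ratio of 49.9 with an exact 95% counting interval of 13.7 to 414 (adjusted p = 0.00110).

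On chromosome 5, Gbp6 had 26.9 and 25.2 CPM in line 2-12, 27.9 and 25.9 CPM in line 2-14, and 4.93 and 6.81 CPM in the control line. The groups were well apart, with a log2 change of 2.11 (SE 0.207, adjusted p = 0.00228). Gbp10, which like Gbp6 has been linked to defence against intracellular bacteria in mice, had 13.6 and 14.7 CPM in line 2-12, 16.2 and 12.9 CPM in line 2-14, and 4.93 and 6.39 CPM in the control line. It rose by 1.29 on the log2 scale (SE 0.245, adjusted p = 0.0251). The other 3 chromosome 5 members did not pass the test. Gbp9 averaged 12.3 ± 1.74 CPM in the depleted lines and 7.52 ± 3.66 CPM in the control line (adjusted p = 0.226). Gbp4 had 26.3 to 36.0 CPM in the depleted lines and 18.8 and 35.7 CPM in the control line (adjusted p = 0.891). Gbp8 had 13.5 to 23.7 CPM in the depleted lines and 26.4 and 19.8 CPM in the control line (adjusted p = 0.596). For 7 of the 9 members, all but Gbp4 and Gbp8, every depleted library lay above both control libraries, as it did for 22.4% of all genes tested.

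Taken separately, line 2-12 had 5 members called higher than in the control line, where 4.83% of all genes rose and 2.13% fell. Line 2-14 also had 5, where 3.43% rose and 1.65% fell. They were Gbp2, Gbp3, Gbp6, Gbp7 and Gbp10 in both cases; these 2 comparisons share the control libraries. Gbp5 missed the threshold in edgeR, with adjusted p-values of 0.0590 in line 2-12 and 0.0516 in line 2-14, while DESeq2 called it in both lines (adjusted p = 0.0340 and 0.0215), as edgeR did without the filter on low counts (adjusted p = 0.000749 and 0.000132). The log2 changes in lines 2-12 and 2-14 were 5.33 and 5.64 for Gbp2, 4.64 and 4.98 for Gbp3, 3.66 and 3.82 for Gbp7, and 2.09 and 2.14 for Gbp6. Between line 2-12 and line 2-14, edgeR called 0 of 9 members, with differences of -0.40 to -0.03 (log2), 0 members at an unadjusted p under 0.05 and 0 by DESeq2; 0.303% of all genes were called higher and 0.182% lower in line 2-12. The calls of Gbp5 and Gbp10 were the weakest: over both lines, leaving out any 1 of the 6 libraries ended the call of Gbp5, with adjusted p-values of 0.0536 to 0.112, and leaving out any but replicate 2 of the control line ended that of Gbp10, with values of 0.0557 to 0.0958. Gbp10 in either line alone was not called by DESeq2 or in most fits without 1 library (adjusted p of up to 0.212), and without replicate 1 of the control line the adjusted p of Gbp3 in line 2-12 was 0.0550.

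Of the interferon signal list, 5 of 18 genes tested rose in the depleted lines and 0 fell. Irf8, an interferon-induced transcription factor, had 51 counts in the depleted lines and 0 in the control line, at least 5.96-fold higher (adjusted p = 0.0263). Socs1, a feedback inhibitor of interferon signalling, rose by 1.63 on the log2 scale (adjusted p = 0.00342). Irf1 averaged 139 ± 6.08 CPM in the depleted lines and 83.0 ± 6.56 CPM in the control line, a log2 change of 0.73 (adjusted p = 0.00951). Ifng, the gene of interferon gamma itself, had 2 counts in the depleted lines and 1 in the control line and was not tested.

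Of the immunity-related GTPases, 2 of 3 tested rose and 0 fell: Irgm1 by 1.97 and Irgm2 by 1.27 on the log2 scale (adjusted p = 0.00229 and 0.0249). Of the inflammasome list, 3 of 5 rose and 0 fell: Aim2, a sensor of cytosolic DNA, by 3.83, Gsdmd, which forms pores in the membrane, by 1.52, and the inflammatory caspase gene Casp4 by 1.13. Aim2 differed between the lines as well, with a mean of 45.5 CPM in line 2-12 and 3.47 CPM in line 2-14 (adjusted p = 0.0105). The myeloid markers summed to 22.3 to 26.9 CPM in line 2-12, 11.7 to 12.4 CPM in line 2-14 and 2.69 to 3.09 CPM in the control line. This sum was carried mainly by Fcgr3, which had 44 to 108 counts in the depleted libraries and 5 to 10 in the control libraries; Cd14 was at 0 in all of them and 6 of the 7 listed markers are in the table. The part of these transcripts in the Gbp result was not tested, and in such bulk samples fewer cells of a type and less RNA per cell cannot be told apart. Erythroid markers, mainly hemoglobin alpha, ran the other way, at 1.47 to 6.31 CPM in the depleted libraries and 21.5 to 25.6 CPM in the control line; this too was not tested.

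In control cells BioNICD1 raised all 9 members, and all 9 had their highest group mean of the 16 groups there. Of the 11315 genes tested in these cells 18.7% rose and 14.2% fell. The members' median log2 change was 3.78, beside 0.013 over all genes tested. All 9 members had every BioNICD1 library above every Biocontrol library, as 30.9% of all genes did.

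**Figure D2:**
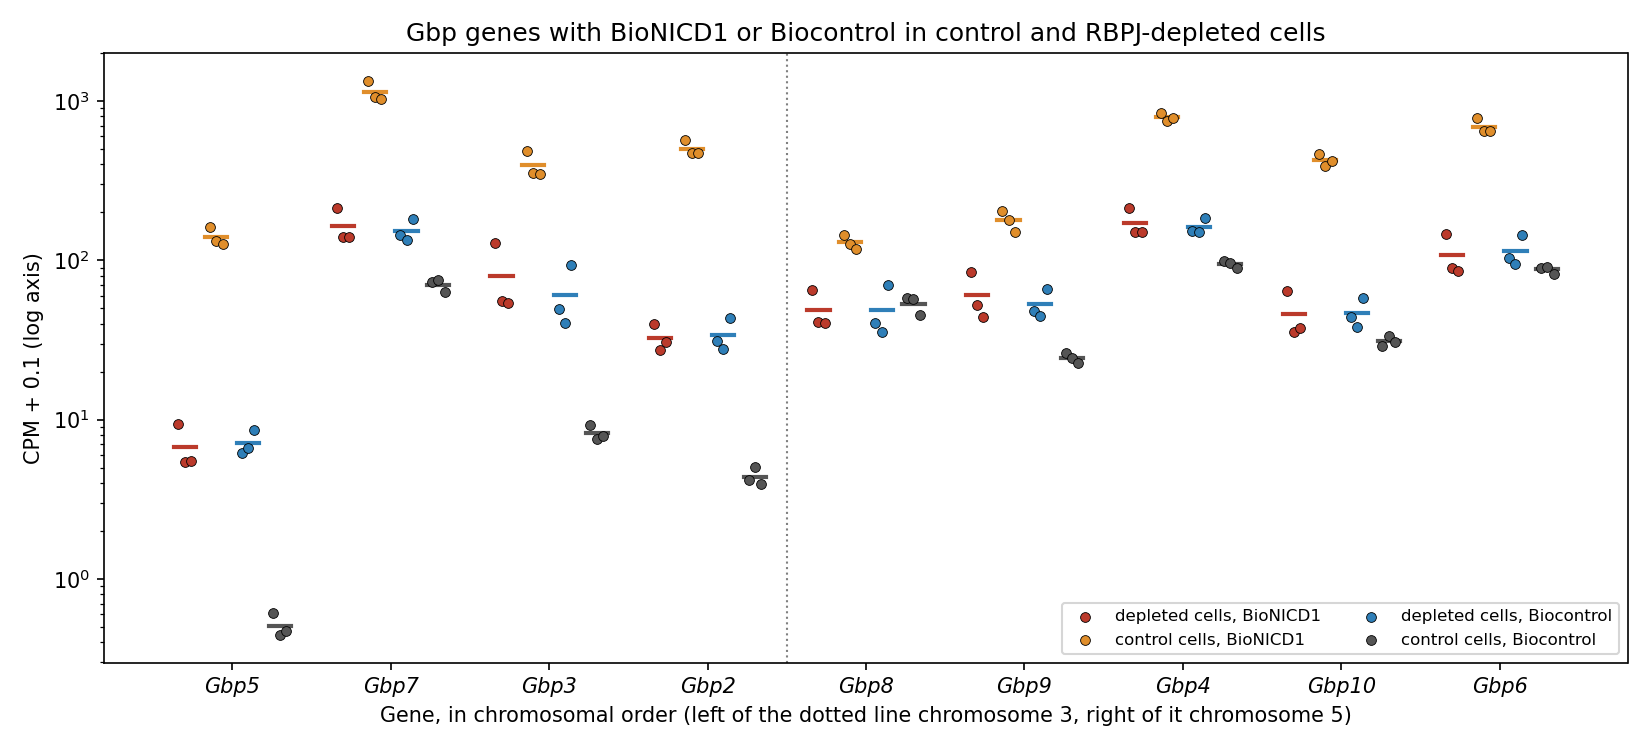
Level of each Gbp gene with BioNICD1 or Biocontrol in RBPJ-depleted and control cells, as CPM + 0.1 on a log axis; points are libraries and bars are group means. For every gene the control cells with BioNICD1 stand above the other 3 groups, and for all genes but Gbp6 and Gbp8 every depleted library lies between the 2 groups of control cells.

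Gbp2 had 567, 472 and 469 CPM in control cells with BioNICD1, against 4.05, 4.94 and 3.83 CPM in control cells with Biocontrol, a 117-fold difference (log2 6.87, SE 0.230, adjusted p = 4.00e-10). Gbp5 had 163, 132 and 126 CPM with BioNICD1, against 0.506, 0.345 and 0.370 CPM with Biocontrol, which are 4, 3 and 3 counts. The fitted difference of Gbp5 was 335-fold (log2 8.39, SE 0.292, adjusted p = 4.74e-10), the largest of the members. Gbp3 had 482, 353 and 346 CPM with BioNICD1, against 9.12, 7.47 and 7.78 CPM with Biocontrol, and rose by 5.60 on the log2 scale (SE 0.434). Gbp7 had 1341, 1053 and 1031 CPM with BioNICD1, against 72.4, 75.1 and 63.3 CPM with Biocontrol, and rose by 4.02 (SE 0.202). In these 4 genes, and in each of the others, the groups were far apart compared with the spread among libraries.

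The 5 members on chromosome 5 rose by 1.28 to 3.78 on the log2 scale. Gbp10 had 463, 392 and 419 CPM with BioNICD1, against 29.0, 33.3 and 30.5 CPM with Biocontrol, the largest change among them (SE 0.225, adjusted p = 7.03e-08). Gbp4 averaged 792 ± 47.4 CPM with BioNICD1 and 94.5 ± 5.08 CPM with Biocontrol, and Gbp6 averaged 691 ± 76.8 CPM with BioNICD1 and 87.7 ± 4.82 CPM with Biocontrol (SD, n = 3 each). Gbp9 averaged 178 ± 26.9 CPM with BioNICD1 and 24.3 ± 1.69 CPM with Biocontrol. Gbp8, the member with the smallest rise, had 145, 127 and 117 CPM with BioNICD1, against 57.5, 57.0 and 45.5 CPM with Biocontrol (log2 1.28, SE 0.240, adjusted p = 0.00138). The non-members moved as well, with Gbp2b at a mean of 355 CPM with BioNICD1 and 2.54 CPM with Biocontrol and Gbp11 at 97.8 CPM with BioNICD1 and 11.1 CPM with Biocontrol.

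In RBPJ-depleted cells, edgeR called 0 of the 9 members between BioNICD1 and Biocontrol, where it called 2.70% of all genes higher and 1.45% lower. The members' log2 differences ran from -0.08 for Gbp6 to 0.38 for Gbp3, 0 had an unadjusted p under 0.05, and DESeq2 called 0. Gbp2 had 40.0, 27.3 and 30.6 CPM in depleted cells with BioNICD1, against 31.1, 27.6 and 43.4 CPM in depleted cells with Biocontrol. Gbp3 had 129, 55.0 and 53.5 CPM with BioNICD1, against 49.0, 40.2 and 93.4 CPM with Biocontrol. The groups overlapped in both genes, and the values of 129 and 93.4 CPM came from the libraries that stand apart. Those libraries held the highest level of each of the 9 members in their groups.

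The difference between the effect of BioNICD1 in depleted cells and that in control cells was itself tested as an interaction. It was negative and called for all 9 members, from -1.27 (SE 0.341, adjusted p = 0.0199, edgeR) for Gbp8 to -8.46 (SE 0.391, adjusted p = 2.97e-08) for Gbp5; 9.17% of all genes had a positive and 13.3% a negative interaction called. Without both libraries that stand apart it was again called negative for all 9. Leaving out replicate 3 of control cells with Biocontrol moved the adjusted p of Gbp8 to 0.0529.

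RBPJ depletion went in opposite directions with the 2 vectors. With Biocontrol, 7 members were higher in depleted than in control cells and 0 lower, with 21.7% of all genes higher and 20.3% lower. Gbp2 had 31.1, 27.6 and 43.4 CPM in depleted cells and 4.05, 4.94 and 3.83 CPM in control cells (log2 2.98, SE 0.219, adjusted p = 6.29e-07). Gbp5 averaged 7.02 ± 1.34 CPM in depleted cells and 0.407 ± 0.0869 CPM in control cells (log2 4.06, SE 0.376), and Gbp3 rose by 2.90, Gbp7 by 1.12, Gbp9 by 1.12, Gbp4 by 0.78 and Gbp10 by 0.59. Gbp6 averaged 114 ± 26.3 CPM in depleted and 87.7 ± 4.82 CPM in control cells (adjusted p = 0.166), and Gbp8 averaged 48.4 ± 18.7 CPM in depleted and 53.3 ± 6.76 CPM in control cells (adjusted p = 0.653). The call of Gbp10 (adjusted p = 0.0419) was lost in 8 of the 12 fits that left out 1 library, any Biocontrol library but replicate 2 of depleted cells included, with values of up to 0.121. Without both libraries that stand apart, Gbp8 was called lower in depleted cells, at -0.50 (adjusted p = 0.00147); without replicate 1 of depleted cells with BioNICD1 alone, Gbp6 was called higher (adjusted p = 0.0491).

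With BioNICD1, all 9 members were lower in depleted than in control cells, with 18.5% of all genes higher and 21.4% lower, and in all 9 every depleted library lay below every control library, as in 26.0% of all genes. Gbp5 had 9.28, 5.30 and 5.42 CPM in depleted cells, against 163, 132 and 126 CPM in control cells, and fell by 4.40 on the log2 scale (SE 0.198, adjusted p = 4.93e-09). The log2 change was -3.95 for Gbp2 (SE 0.189), -3.22 for Gbp10, -2.80 for Gbp7, -2.69 for Gbp6, -2.32 for Gbp3, -2.21 for Gbp4, -1.57 for Gbp9 and -1.42 for Gbp8. Depleted cells with BioNICD1 held 40.0, 27.3 and 30.6 CPM of Gbp2 and thus lay below control cells with BioNICD1 but above control cells with Biocontrol. Rbpj itself averaged 19.3 ± 0.606 CPM in depleted and 90.9 ± 2.86 CPM in control cells with Biocontrol, and 24.4 ± 2.62 CPM in depleted and 85.7 ± 2.63 CPM in control cells with BioNICD1. It was not called between BioNICD1 and Biocontrol in control cells (log2 -0.08) or in depleted cells (log2 0.34, adjusted p = 0.0604), while its interaction was called (log2 0.42, adjusted p = 0.0295).

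Of the interferon signal list, 13 of 19 genes rose with BioNICD1 in control cells and 2 fell. Ifng averaged 7.80 ± 2.08 CPM with BioNICD1 and 0.203 ± 0.191 CPM with Biocontrol, on 239 and 5 counts (log2 5.18, SE 0.527, adjusted p = 9.62e-06). Irf1 averaged 599 ± 17.6 CPM with BioNICD1 and 98.5 ± 1.45 CPM with Biocontrol (log2 2.60). The feedback inhibitors Socs3 and Socs1 rose by 3.82 and 3.81. In depleted cells 0 of the 19 were called by edgeR with BioNICD1; Ifng had 1 count with BioNICD1 and 2 with Biocontrol, and Irf1 had a log2 difference of -0.01. With Biocontrol, depleted cells had 6 of the 19 higher and 2 lower than control cells; Irf1 rose by 0.66. Ifng was at 2 counts in depleted and 5 counts in control cells there. With BioNICD1, depleted cells had 1 of the 19 higher and 13 lower, with a log2 change of -1.96 for Irf1, and Ifng at 1 count in depleted and 239 in control cells. The interaction was called negative in 11 of the 19 and positive in 1; it was -2.62 for Irf1 and -5.89 for Ifng, which did not pass the test (adjusted p = 0.0833).

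All 7 immunity-related GTPases rose with BioNICD1 in control cells, and Tgtp1, Iigp1 and Tgtp2 rose most, by 10.23, 10.22 and 9.71 on the log2 scale. Iigp1 averaged 355 CPM with BioNICD1 and 0.282 CPM with Biocontrol in control cells. In depleted cells 1 of the 7, Iigp1, rose, by 1.92 (adjusted p = 0.0326) on 22 counts with BioNICD1 and 6 with Biocontrol. Depletion with Biocontrol raised 1 of the 7, Irgm1, by 0.46, and depletion with BioNICD1 lowered all 7. Of the inflammasome list Gsdmd, Pycard and Casp1 rose with BioNICD1 in control cells, by 1.01, 0.65 and 0.63, and Aim2 fell by 1.04. Aim2 was higher in depleted than in control cells, by 2.15 with Biocontrol and by 3.76 with BioNICD1.

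Some markers of other cells also differed in this experiment. The natural killer cell marker Ncr1 had 20 to 25 counts in each library of control cells with BioNICD1 and 0 in the other 3 groups. Klrb1c and Klrd1, also listed for natural killer cells, were at 0 counts in every library of this experiment. Myeloid markers summed to 6.67 to 8.24 CPM in control cells with BioNICD1 and to 2.17 to 4.25 CPM elsewhere, and T cell markers to 1610 to 1730 CPM against 956 to 1277 CPM. The myeloid sum was carried mainly by Itgam, with 51 to 60 counts in control cells with BioNICD1 and 2 to 14 elsewhere. Lyz2 was not higher there, with 10 to 13 counts against 11 to 30. Among the T cell markers, Cd2 had 136 to 182 counts in control cells with BioNICD1 and 169 to 237 in control cells with Biocontrol. B cell markers summed to at most 0.286 CPM in a library of this experiment and stayed under 0.9 CPM in the others. The part of these transcripts in the Gbp result was not tested.

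In cells carrying NICD1-ER, after 24 h of 4-OHT, 4 of the 9 members were higher than with ethanol (Gbp2, Gbp6, Gbp7 and Gbp8), while Gbp2 was lower at 4 h. The changes were small beside those with BioNICD1. All 4-OHT times were compared with the same ethanol samples, which had ethanol for 24 h. At 4 and 8 h the effect of 4-OHT therefore cannot be told apart from that of a shorter treatment. Each group had 2 samples, at 4 and 8 h after summing. With ethanol and at 24 h the 2 samples were single libraries, as the labelled replicate 1 was not among the columns used.

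**Figure D3:**
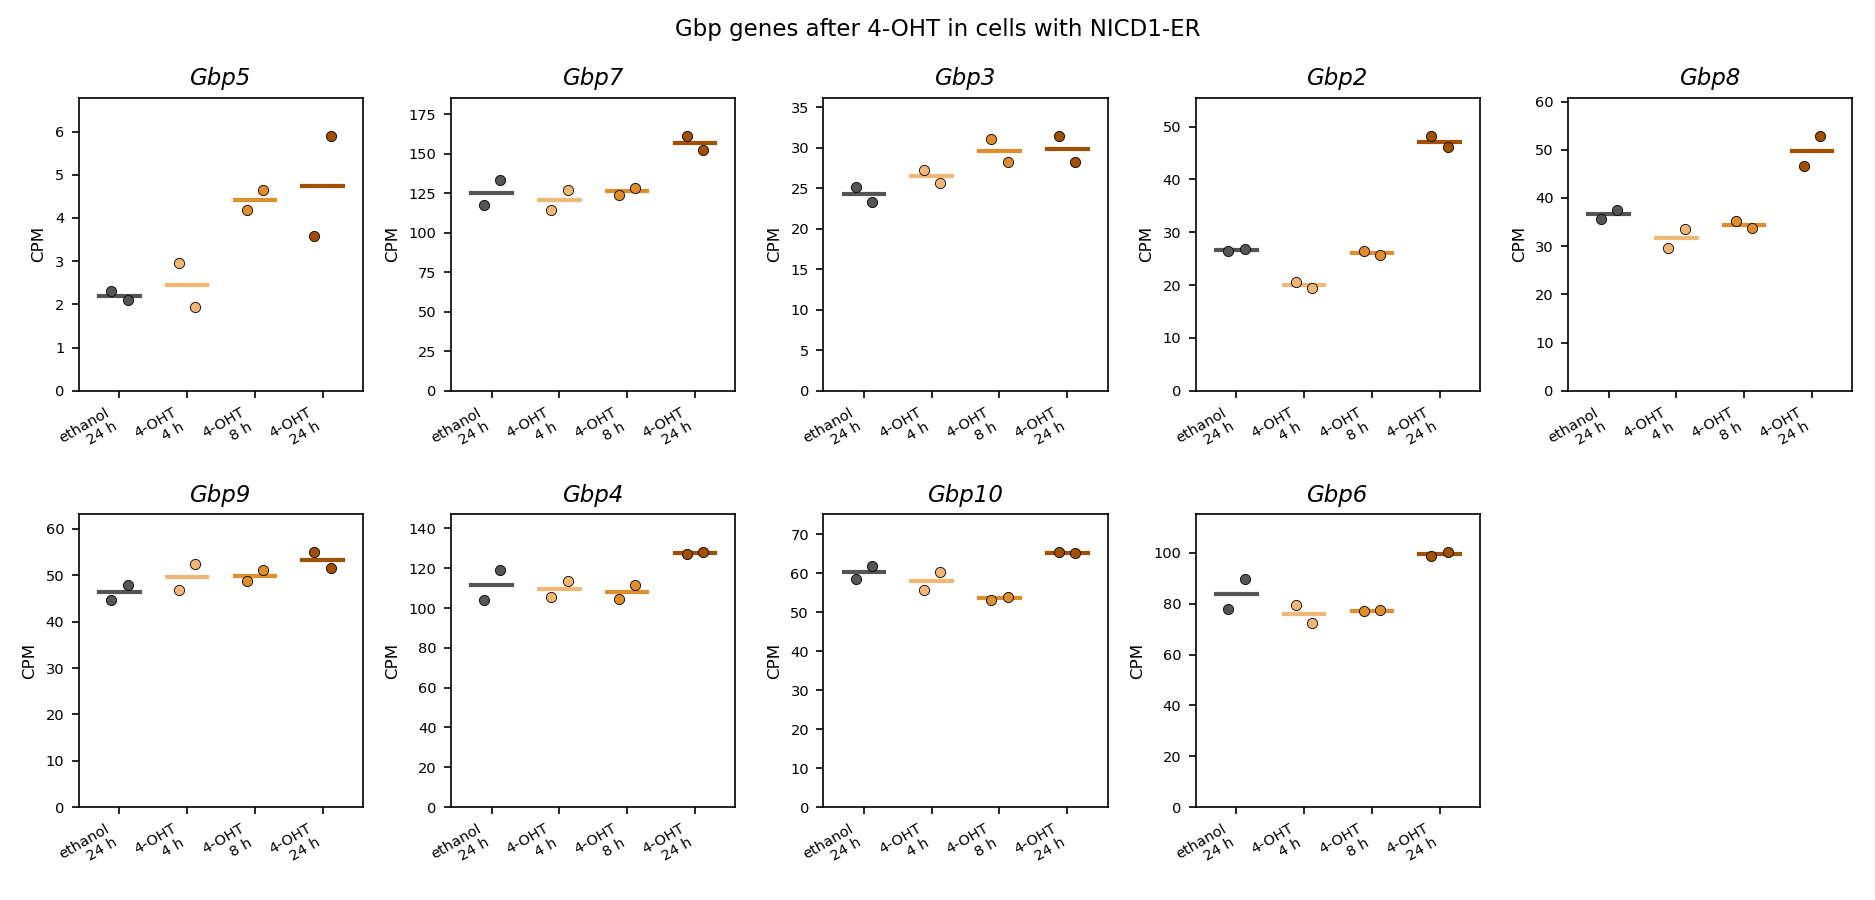
Level of each Gbp gene in CPM with ethanol and after 4, 8 and 24 h of 4-OHT in cells carrying NICD1-ER; points are samples and bars are group means, and each panel has its own axis from 0. Gbp2 is lowest at 4 h, at 20.6 and 19.5 CPM, and highest at 24 h, at 48.2 and 46.1 CPM.

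Gbp2 had 26.5 and 26.8 CPM with ethanol, 20.6 and 19.5 CPM at 4 h, 26.5 and 25.8 CPM at 8 h and 48.2 and 46.1 CPM at 24 h. The samples of 4 h lay below the ethanol samples and those of 24 h above them, while those of 8 h overlapped them. At 4 h Gbp2 fell by 0.40 on the log2 scale (SE 0.108, adjusted p = 0.0368, edgeR) and was the 1 member called, where 3.16% of the 11808 genes tested rose and 3.09% fell. DESeq2 did not make this call, and it was lost in 6 of 8 fits that left out 1 sample. At 8 h edgeR called 0 members, where 5.06% of all genes rose and 5.31% fell; 3 had an unadjusted p under 0.05 and DESeq2 called 0. At 24 h 6.59% of all genes rose and 4.22% fell, and Gbp2 rose by 0.82 (SE 0.0987, adjusted p = 1.69e-05).

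Gbp7 had 117 and 133 CPM with ethanol, 115 and 127 CPM at 4 h, 124 and 129 CPM at 8 h and 161 and 153 CPM at 24 h, where it rose (log2 0.32, SE 0.0674, adjusted p = 0.00422). Gbp8 had 35.7 and 37.5 CPM with ethanol, 29.7 and 33.5 CPM at 4 h, 35.2 and 33.8 CPM at 8 h and 46.7 and 52.8 CPM at 24 h (log2 0.43, SE 0.0999, adjusted p = 0.00799). Gbp6 had 77.9 and 89.9 CPM with ethanol, 79.6 and 72.3 CPM at 4 h, 77.2 and 77.3 CPM at 8 h and 98.8 and 100.2 CPM at 24 h (log2 0.24, SE 0.0723, adjusted p = 0.0456). The samples of 24 h were the highest in each of these 3 genes. In all 9 members, the 5 that did not pass the test included, both samples of 24 h lay above both ethanol samples, as in 24.6% of all genes tested, and the members' median log2 change was 0.31, beside -0.0058 over all genes. Gbp5 had 2.31 and 2.10 CPM with ethanol, 2.95 and 1.95 CPM at 4 h, 4.18 and 4.64 CPM at 8 h and 3.57 and 5.89 CPM at 24 h, with adjusted p-values of 0.0809 at 8 h and 0.0692 at 24 h (edgeR). Gbp3, Gbp4, Gbp9 and Gbp10 had log2 differences of 0.31, 0.19, 0.20 and 0.11 at 24 h. The call of Gbp2 at 24 h was kept in each alternative fit, while DESeq2 gave 0.386 for Gbp6 and 0.107 for Gbp8. Without ethanol replicate 2 the adjusted p was 0.340 for Gbp6, 0.0554 for Gbp7 and 0.0528 for Gbp8; without 24 h replicate 2 it was 0.176 for Gbp6 and 0.0842 for Gbp7, and without 24 h replicate 3 it was 0.221 for Gbp6 and 0.125 for Gbp8.

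Ifng averaged 0.844 ± 0.111 CPM with ethanol, 1.06 ± 0.425 CPM at 4 h, 2.15 ± 0.944 CPM at 8 h and 3.56 ± 0.280 CPM at 24 h (SD, n = 2 each), and was called at 24 h (log2 2.07, adjusted p = 0.00874, edgeR). Of the interferon signal list 10 of 19 genes rose at 24 h and 2 fell, and Socs3 (2.42), Ifng and Irf9 (1.18) rose most. Irf1 averaged 176 ± 8.37 CPM with ethanol, 182 ± 6.08 CPM at 4 h, 174 ± 8.16 CPM at 8 h and 218 ± 7.10 CPM at 24 h, and it was called at 24 h, with a log2 change of 0.31. At 4 h and at 8 h 1 of the 19, Irf9, rose and 2, the receptor genes Ifngr1 and Ifngr2, fell. Of 6 immunity-related GTPases tested, 2 rose at 8 h (Tgtp1 and Tgtp2) and 4 at 24 h, led by Tgtp1 at 2.26 and Tgtp2 at 2.03. Of the inflammasome list Casp4 rose at 24 h, by 0.69. Gbp2b was lower at 4 h, at -0.55, and higher at 24 h, at 0.68 (log2; adjusted p = 0.0423 and 0.00337). The log2 change of Rbpj was -0.37, -0.40 and -0.42 at 4, 8 and 24 h, and it was called at each time.

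With GFP-KYOT2 wild type, Gbp6 and Gbp7 were higher than with GFP, and Gbp7 was also higher than with the RBPJ-binding-defective WWAA mutant. In this experiment the chromosome 3 members other than Gbp7 were close to the floor, and Gbp5, with 6, 10 and 4 counts with the wild type, 2, 2 and 1 with WWAA and 1, 3 and 1 with GFP, was not tested. Against GFP, 2 of the 8 members tested rose with the wild type and 0 fell, where 0.807% of the 11150 genes tested rose and 0.0807% fell.

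**Figure D4:**
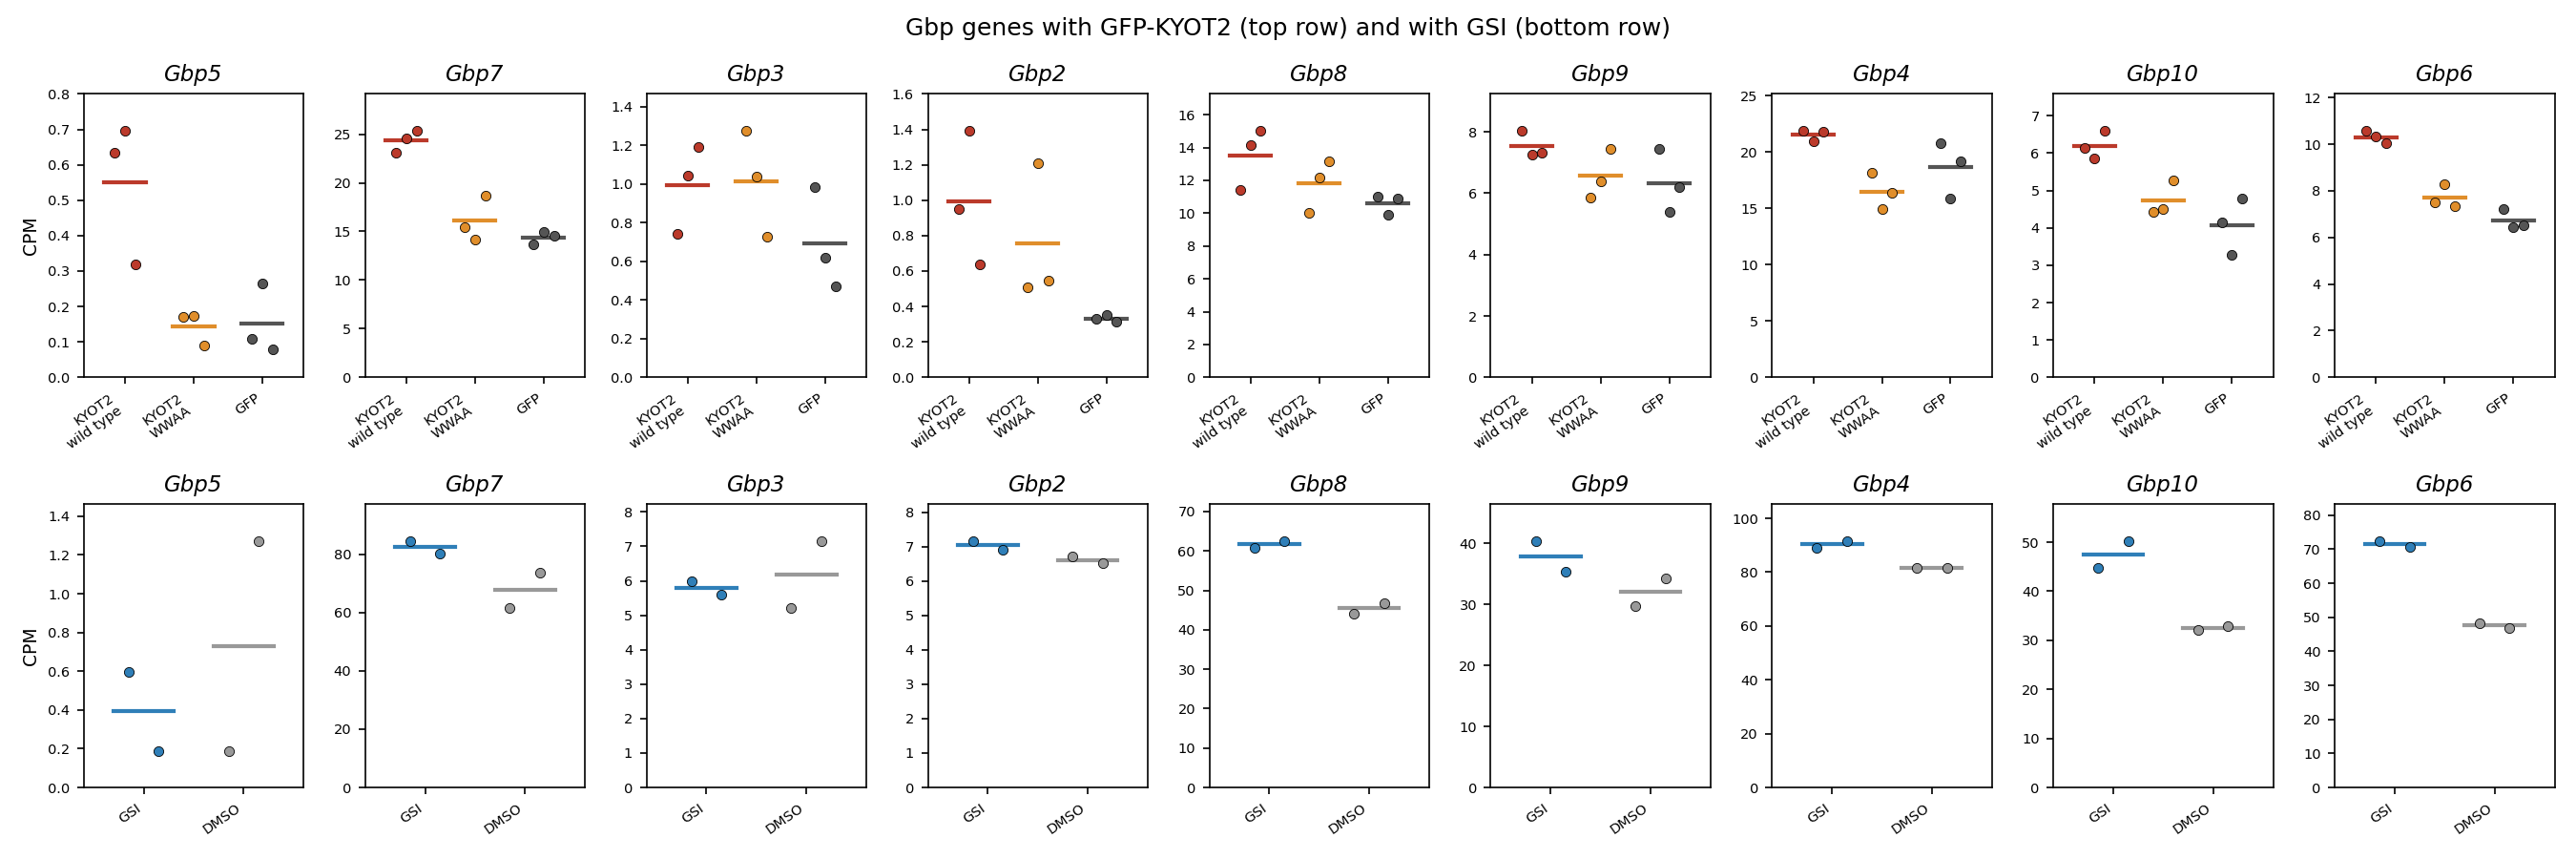
Level of each Gbp gene in CPM with GFP-KYOT2 wild type, GFP-KYOT2 WWAA and GFP (top) and with GSI and DMSO (bottom); points are libraries and bars are group means, and each panel has its own axis from 0. Gbp7 stands at 23.1 to 25.4 CPM with KYOT2 wild type, above 14.2 to 18.7 CPM with WWAA and 13.7 to 14.9 CPM with GFP, and Gbp6 at 72.5 and 70.8 CPM with GSI, above 48.2 and 47.0 CPM with DMSO.

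Gbp7 had 23.1, 24.6 and 25.4 CPM with the wild type, 15.4, 14.2 and 18.7 CPM with WWAA and 13.7, 14.9 and 14.6 CPM with GFP. The wild-type libraries lay above all others, and WWAA and GFP overlapped. The log2 change of Gbp7 was 0.76 against GFP (SE 0.102, adjusted p = 0.00122, edgeR) and 0.60 against WWAA (SE 0.0996, adjusted p = 0.00616). Gbp6 had 10.6, 10.3 and 10.0 CPM with the wild type, 7.49, 8.30 and 7.36 CPM with WWAA and 7.21, 6.45 and 6.51 CPM with GFP. It was above both other groups in every wild-type library, with a log2 change of 0.62 against GFP (SE 0.113, adjusted p = 0.0165) and of 0.41 against WWAA, which did not pass the test (adjusted p = 0.0854). The call of Gbp6 against GFP was lost under DESeq2 (adjusted p = 0.0519) and without replicate 1 or 2 of the wild type or replicate 2 or 3 of GFP, with values of 0.0687 to 0.101.

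Gbp2 had 9, 20 and 8 counts with the wild type, 6, 14 and 6 with WWAA and 3, 4 and 4 with GFP, and was not called (log2 1.58 for the wild type against GFP, SE 0.491, adjusted p = 0.181). Gbp10 had 6.14, 5.85 and 6.60 CPM with the wild type and 4.15, 3.27 and 4.78 CPM with GFP (adjusted p = 0.125). Of the 8 members tested, 6 had every wild-type library above every GFP library (Gbp2, Gbp4, Gbp6, Gbp7, Gbp8 and Gbp10), as 10.2% of all genes did, and the members' median log2 change was 0.60, beside -0.0018 over all genes. Between WWAA and GFP edgeR called 0 members, where 0.0717% of all genes rose and 0.0179% fell; 1 member, Gbp2, had an unadjusted p under 0.05 and DESeq2 called 0. Between the wild type and WWAA, 1 member, Gbp7, was called, where 1.26% of all genes were higher and 0.601% lower.

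Of the 16 genes of the interferon signal list that were tested, edgeR called 0 for the wild type or WWAA against GFP. Against WWAA, 3 were higher with the wild type: Ifngr1 by 0.40, Stat3 by 0.25 and Ifngr2 by 0.24. Irf1 averaged 64.9 ± 0.560 CPM with the wild type and 61.7 ± 1.55 CPM with GFP (adjusted p = 0.651). With WWAA, Irf1 averaged 60.2 ± 4.00 CPM, and it was not called against the wild type or GFP. Ifng had 1 count with the wild type, 2 with WWAA and 1 with GFP. Rbpj averaged 183 ± 6.34 CPM with the wild type and 140 ± 1.43 CPM with GFP, a log2 change of 0.38 (adjusted p = 0.00452), and 149 ± 13.0 CPM with WWAA. The immunity-related GTPases tested, 3 in number, were not called by edgeR in these comparisons, and Casp4 was higher with the wild type than with WWAA, by 0.54.

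GSI, the gamma-secretase inhibitor, raised 4 of the 8 members tested, Gbp6, Gbp7, Gbp8 and Gbp10, of which all but Gbp7 lie on chromosome 5, and lowered 0. It was called to raise 9.17% and to lower 11.6% of the 11634 genes tested, and the members' median log2 change was 0.25, beside 0.0018 over all genes. Gbp5, at 3 and 1 counts with GSI and 1 and 8 with DMSO, was not tested.

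Gbp6 had 72.5 and 70.8 CPM with GSI, against 48.2 and 47.0 CPM with DMSO (log2 0.59, SE 0.0695, adjusted p = 9.03e-08, edgeR). Gbp10 had 44.8 and 50.3 CPM with GSI, against 32.2 and 32.8 CPM with DMSO (log2 0.55, SE 0.0874, adjusted p = 1.53e-05). Gbp8 had 60.7 and 62.6 CPM with GSI, against 44.1 and 46.8 CPM with DMSO (log2 0.44, SE 0.0735, adjusted p = 3.66e-05). In all 3 genes the groups were well apart. Gbp7 had 84.6 and 80.3 CPM with GSI, against 61.6 and 73.7 CPM with DMSO (log2 0.27, SE 0.0706, adjusted p = 0.00464); DESeq2 did not call it (adjusted p = 0.249), nor did edgeR without DMSO replicate 1 (adjusted p = 0.166).

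The chromosome 3 members Gbp2 and Gbp3 were not called. Gbp2 had 7.17 and 6.89 CPM with GSI, against 6.70 and 6.53 CPM with DMSO (adjusted p = 0.849), and Gbp3 had 5.97 and 5.59 CPM with GSI, against 5.21 and 7.16 CPM with DMSO (adjusted p = 0.811). Gbp4, at 89.0 and 91.7 CPM with GSI and 81.5 and 81.5 CPM with DMSO, and Gbp9, at 40.4 and 35.4 CPM with GSI and 29.8 and 34.2 CPM with DMSO, did not pass the test (adjusted p = 0.0952 and 0.0958). Of the 8 members tested, 7 had both GSI libraries above both DMSO libraries, all but Gbp3, as 29.1% of all genes did. Gbp11, the pseudogene of the chromosome 5 cluster, rose by 0.61 (adjusted p = 0.00222).

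Of the interferon signal list, 4 of 17 genes rose with GSI and 0 fell, namely Socs1 by 0.50, Stat2 by 0.32, Nlrc5, an activator of MHC class I genes, by 0.26 and Irf1 by 0.21. Irf1 averaged 131 ± 2.83 CPM with GSI and 113 ± 1.12 CPM with DMSO, and Ifng had 1 count in each group. Irgm2 rose by 0.69, Casp4 by 0.76 and Casp1 by 0.22, and Rbpj by 0.20 (adjusted p = 0.00132).

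**Figure D5:**
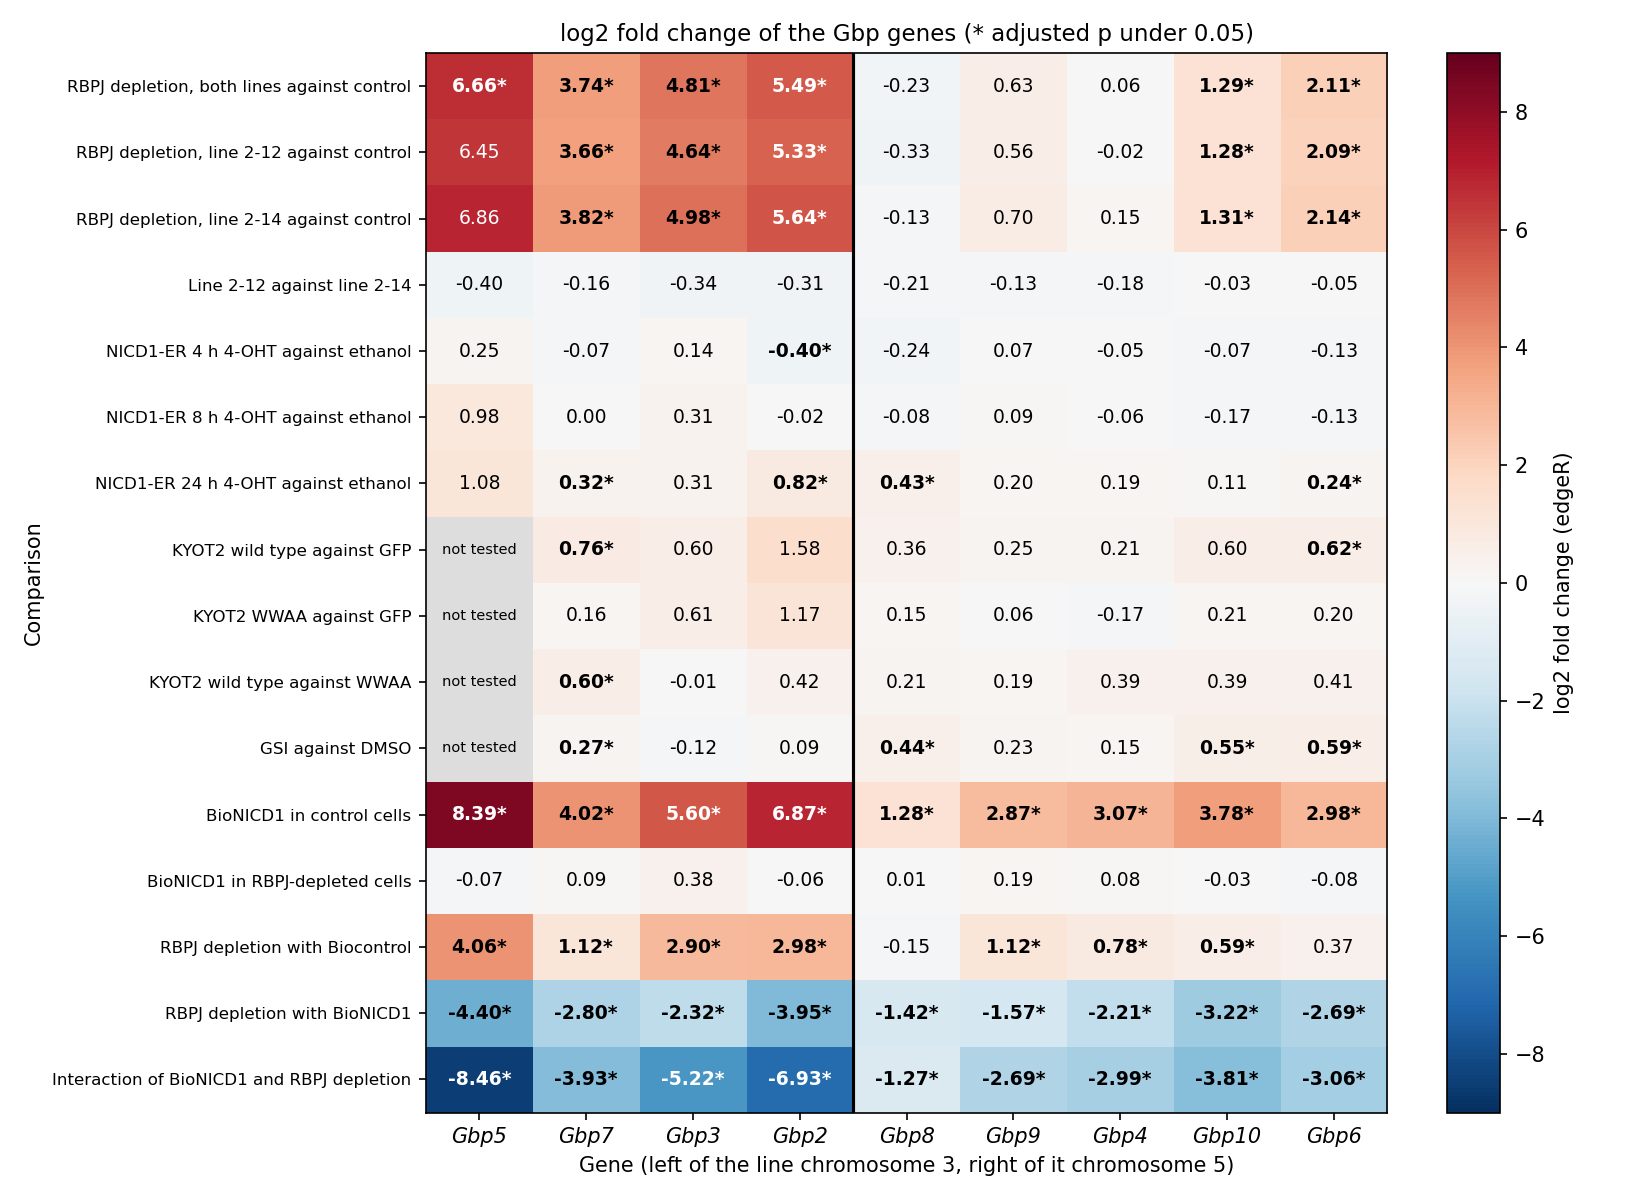
Log2 change of each Gbp gene (columns, in chromosomal order) in each comparison (rows); color and the printed number give the change fitted by edgeR, a star marks an adjusted p under 0.05, and the values of Gbp5 in the first 3 rows are against a control line at 0 counts. The values with BioNICD1 in control cells run from 1.28 for Gbp8 to 8.39 for Gbp5, and no star stands in the row of BioNICD1 in RBPJ-depleted cells.

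Summed over the 4 chromosome 3 members, the level was 179 CPM in the depleted lines and 10.4 CPM in the control line, a ratio of 17.2; over the 5 chromosome 5 members it was 102 CPM in the depleted lines and 69.4 CPM in the control line, a ratio of 1.48. With BioNICD1 in control cells, the chromosome 3 sum was 2178 CPM, against 83.1 CPM with Biocontrol, a ratio of 26.2, and the chromosome 5 sum was 2216 CPM, against 291 CPM, a ratio of 7.62. At 24 h of 4-OHT the ratios to ethanol were 1.34 and 1.17 on chromosomes 3 and 5, and with KYOT2 wild type against GFP they were 1.73 and 1.28. With GSI the order was the other way round, with ratios of 1.18 on chromosome 3 and 1.29 on chromosome 5. These ratios were not tested against each other. The chromosome 3 sums are made up mostly of Gbp7, also where the other members are above the floor. Its mean was 123 CPM in the depleted lines, 125 CPM with ethanol and 1141 CPM in control cells with BioNICD1.

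The groups that served as controls differed in their Gbp levels as well. The experiments were fitted apart, so these levels are set side by side with no test. Gbp2 averaged 26.6 CPM with ethanol in the NICD1-ER cells, 6.61 CPM with DMSO, 4.27 CPM in control cells with Biocontrol, 0.636 CPM in the control line and 0.332 CPM with GFP. The highest of these means was 80.3-fold above the lowest for Gbp2, 38.1-fold for Gbp3, 15.0-fold for Gbp6, 14.8-fold for Gbp10 and 13.7-fold for Gbp7. For Gbp9, Gbp4 and Gbp8 the span was 7.32, 5.99 and 5.03-fold. Ranked over all 16 groups, Gbp2 was highest in control cells with BioNICD1, next with 24 h of 4-OHT, then in line 2-14 and in depleted cells with Biocontrol, whose libraries overlap, and lowest with GFP. Among the 15 pairs of neighbours in that order the libraries did not overlap in 8 for Gbp2 and for Gbp6, 7 for Gbp3, Gbp4 and Gbp10, 6 for Gbp7, Gbp8 and Gbp9, and 4 for Gbp5. These numbers only describe the order. They were not computed for other genes, and many neighbours come from different experiments.

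Likeness to the members' pattern was measured as Pearson's r between a gene's log2(CPM + 1) and that of the summed members over 16 group means, each centred within its experiment, for 10409 genes. The points share libraries and 4 of the 16 groups are of the BioNICD1 experiment, so r is a description; a member's r also includes the member in the sum. The 4 non-members most like the family were Dtx3l (0.989), Parp12 (0.987), Zbp1 (0.976) and Irf1 (0.972). Over the 12 groups outside the BioNICD1 experiment their r was 0.962, 0.954, 0.974 and 0.947. Zbp1, a sensor of nucleic acids, averaged 26.8 CPM in line 2-12, 24.2 CPM in line 2-14 and 4.80 CPM in the control line, and 189 CPM in control cells with BioNICD1 against 16.0 CPM with Biocontrol. Among the members Gbp8 was least like the family, with r of 0.701 and, outside the BioNICD1 experiment, 0.00555. Gbp4 came next at 0.902 and 0.624, and the other members compared ran from 0.927 for Gbp3 to 0.982 for Gbp6.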

How the data were processed

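RNA was measured in 41 libraries of a mouse T cell line. The authors deposited raw read counts per gene symbol; of 65 columns, 24 were not used because their headings match no labelled sample or, for 2, are the same. Per the submitters' processing notes TopHat2 2.1.1, Picard, deepTools and the build mm9 were used; the counting tool, the annotation and the use of strand are not given in the sources used here. The deposited counts of each experiment were fitted separately with edgeR 4.0.16 in R 4.3.3, using TMM factors, filterByExpr, a prior count of 0.125, 1 mean per group and two-sided quasi-likelihood F-tests. The fits were also run on simulated data. Only genes above low counts were changed there, so those runs do not cover members near the floor. A group at 0 counts was compared through a floor of 3 counts over the group. Alternatives were DESeq2 1.42.0, RLE factors, no filter on low counts, the replicate number as a block, leaving out each library, unsummed libraries and, chosen after seeing the data, leaving out both libraries that stand apart. The members and lists were chosen with earlier results of these data known. All 9 members are named; of other lists, at most 3 called genes with the largest change per comparison, plus Ifng, Irf1 and Rbpj, and Casp1 and genes without a call named after their values were seen; Gbp1 was not analysed here. Some genes that the rule names are not reported here. The labels do not say what same-numbered replicates share. Deposited region lists were not used here.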

Additional observations from a re-analysis of the deposited data

Results flagged for a closer look

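The effect of BioNICD1 in RBPJ-depleted cells minus that in control cells was tested in edgeR for each member, and all 9 differences passed the test after adjustment over the 11315 genes tested. Of all genes, 13.3% had a negative and 9.17% a positive difference called. On the log2 scale the difference was -6.93 for Gbp2 (adjusted p = 1.14e-08), -5.22 for Gbp3 (2.98e-05), -2.99 for Gbp4 (6.95e-07), -8.46 for Gbp5 (2.97e-08) and -3.06 for Gbp6 (1.51e-05). It was -3.93 for Gbp7 (adjusted p = 7.17e-07), -1.27 for Gbp8 (0.0199), -2.69 for Gbp9 (8.15e-05) and -3.81 for Gbp10 (2.95e-06). Each group had 3 libraries, and every BioNICD1 library lay above every Biocontrol library in control cells for all 9 members, as for 30.9% of all genes. In depleted cells edgeR called 0 of the 9 between BioNICD1 and Biocontrol, where it called 2.70% of all genes higher and 1.45% lower.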

How the results depend on the processing

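Of 1849 values of single members under other settings, 1770 kept their direction and their side of the threshold, 59 lost a call, 20 gained one and 0 reversed. The number of members called for line 2-12 against the control line was 5, with 6 without the filter on low counts, 6 with the replicate block and 3 to 5 when 1 library was left out; for line 2-14 it was 5, with 6, 6 and 4. With the block Gbp5 was called in both lines (edgeR, adjusted p = 0.0118 in line 2-12 and 0.00730 in line 2-14). For 4 h of 4-OHT it was 1, with 0 under DESeq2 and 0 to 1 when 1 sample was left out. For 8 h it was 0, with 1 without the filter on low counts and 1 with the replicate block. For 24 h it was 4, with 2 under DESeq2, 5 without the filter, 5 with each library as a sample, 6 with the block and 1 to 5 when 1 sample was left out. For KYOT2 wild type against GFP it was 2, with 1 under DESeq2, 3 with the block and 1 to 2 when 1 library was left out. For KYOT2 wild type against WWAA it was 1, with 2 without the filter and 3 with the replicate block. The cause was not tested. The labels do not say that a replicate number marks a shared culture or day. Correlations of same-numbered deviations ran from 0.455 to 0.636 in the depletion experiment, where each line has only 2 numbers, from 0.0651 to 0.205 with NICD1-ER, from 0.0507 to 0.476 with KYOT2 and from -0.516 to 0.636 with BioNICD1, and the correlation was 0.0272 with GSI. The depletion values are a hint of pairing from the data, not from the design. Each RLE fit gave the same calls as TMM. Low counts limited Gbp5 in the KYOT2 and GSI experiments and Gbp2 and Gbp3 in the control line, at 5 counts each over its 2 libraries.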
